A study of Mus musculus with 94 samples.

Results

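The Pdgfrb-positive and the Pdgfrb-negative stromal cells of mouse periaortic fat were compared gene by gene. All cells came from the adipose tissue around the aorta of c57/bl mice aged 8 weeks. They were freshly isolated with collagenase I, were not cultured or treated, and were sorted as CD144-/CD45-/CD29+/Sca1+ cells, a population named PV-ADSCs for stem cells of perivascular fat. CD144, the product of Cdh5, marks endothelial cells and CD45 marks blood cells, and both were gated out. Each cell was made into a library of its own with full-length cDNA chemistry. Of the 85 cells in the deposited table, 58 were taken as stromal because Dcn, which encodes the collagen-binding proteoglycan decorin, had a value of at least 1000 and Col3a1, a chain of type III collagen, had a value of at least 100. Of these 58 cells, 17 had a Pdgfrb value of at least 100 and are called Pdgfrb-positive, and 39 had a Pdgfrb value of 0 and are called Pdgfrb-negative. The other 2 cells lay between the limits and were left out. No label ties a cell to an animal. The cells therefore count as 1 sample, and the groups are described without a test.

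PDGFRβ, the product of Pdgfrb, is 1 of a pair of receptor tyrosine kinases for platelet-derived growth factors. It binds PDGF-B and PDGF-D, whereas PDGFRα, the product of Pdgfra, binds the A and C chains as well as B. After a ligand has brought the receptors together, their tails bind adaptors and enzymes that lead to the Ras-MAP kinase, PI3 kinase, Src and STAT routes. In vessels, PDGFRβ is best known for the recruitment of pericytes and smooth muscle cells. In adipose tissue, both receptors are used to mark stromal cells, some of which are progenitors of adipocytes. Finding no read of Pdgfrb in a cell does not show that the cell lacks the receptor, since single-cell libraries miss transcripts, and the protein was not analysed here.

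The cells were chosen by their values of Pdgfrb, Dcn and Col3a1, which are given only as a description. In the 17 positive cells, Pdgfrb ranged from 212 to 4976 with a median of 890, which was 255 to 3741 recovered reads with a median of 1070 reads. Recovered reads are the whole reads left after the scaling factor of each gene and cell was divided out of the deposited value. The 2 cells left out had Pdgfrb values of 2.15 and 74.8, which lie below the lowest positive cell, at 212, by the rule itself. Dcn had a median of 85701 in the positive cells (range, 11185 to 332731) and 96494 in the negative cells (range, 6521 to 365531). Col3a1 had a median of 20906 in the positive cells (range, 3252 to 67110) and 16357 in the negative cells (range, 567 to 303812). The lowest Dcn value among the negative cells came from 69 reads and the lowest Col3a1 value among them from 6 reads, because the deposited scaling had raised them. In the 27 cells outside the stromal limits, Pdgfrb was found in 0 cells, which allows a share of up to 11.1%, and the highest Dcn value was 269.

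Genes per cell were alike in the groups and depth was somewhat higher in the positive cells, as is shown in the plot of Pdgfrb, genes and reads by cell. A median of 2765 genes was above 0 in a positive cell (range, 2053 to 4010) and 2826 in a negative cell (range, 850 to 4148). The recovered reads on genes had a median of 3438950 in the positive cells (range, 1428530 to 4090661) and 2834386 in the negative cells (range, 1146951 to 4776510). Mitochondrially encoded genes took a median of 4.18% of the reads in the positive cells (range, 0.975% to 10.9%) and 3.20% in the negative cells (range, 0.95% to 33.5%). The part of these measures in the differences below was not tested, apart from the counts given with equal depth.

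**Figure D1:**
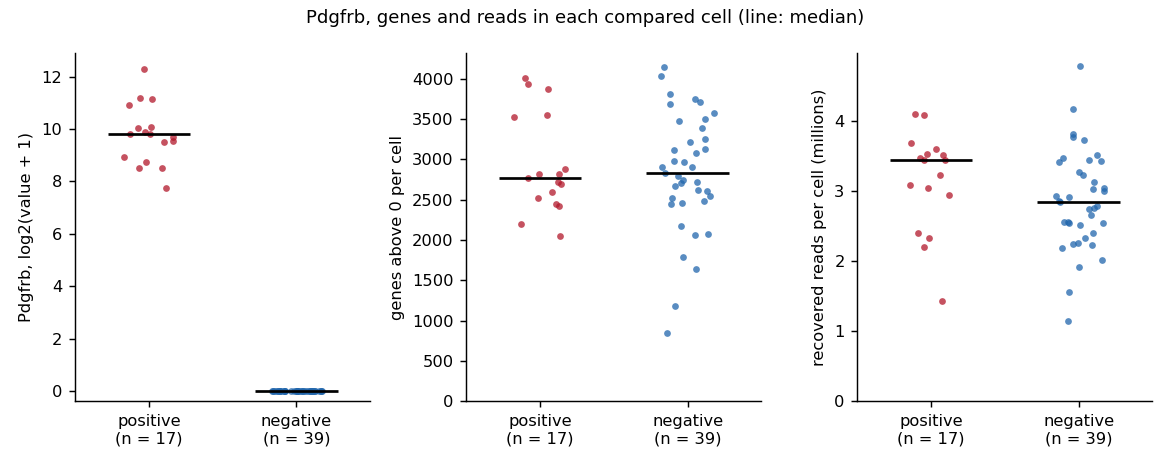
Pdgfrb as log2(deposited value + 1), the number of genes above 0, and the recovered reads (axis in units of 10 to the power 6) for each cell of both groups, with 1 point per cell and a line at the median. Pdgfrb separates the groups because it defined them, whereas the ranges of genes per cell, 2053 to 4010 in positive and 850 to 4148 in negative cells, overlap, as do those of the reads.

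Pdgfrb-positive and Pdgfrb-negative cells shared most of what was measured. A gene is called found in a cell when its value was above 0, and 5239 genes found in at least 10 of the 56 compared cells were followed, leaving out Pdgfrb, Dcn and Col3a1. The median difference in the share of cells, positive minus negative, was 1.06 percentage points, and 90% of genes lay between -19.8 and 22.5 points. Of all genes followed, 53.7% were found in a larger share of positive cells and 45.4% in a smaller share, the base for the counts by direction below. A difference of 30 points was the size used to name a gene as apart. By that size 73 genes were found more often in positive cells, which is 1.39% of the genes followed, and 39 genes were found more often in negative cells, which is 0.744%. Together these 112 genes were 2.14% of the genes followed, and 19 of them had predicted-gene, pseudogene or clone names. With 17 positive cells, 1 cell moves a share by 5.88 points, and leaving out any 1 cell gave between 64 and 94 genes higher and between 28 and 50 lower. When every cell was thinned to 1146951 reads, the counts were 75 and 32, and 60 of the 73 and 29 of the 39 genes stayed past 30 points. With only the 33 negative cells whose genes per cell lay in the range of the positive cells, 78 genes were lower.

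**Figure D2:**
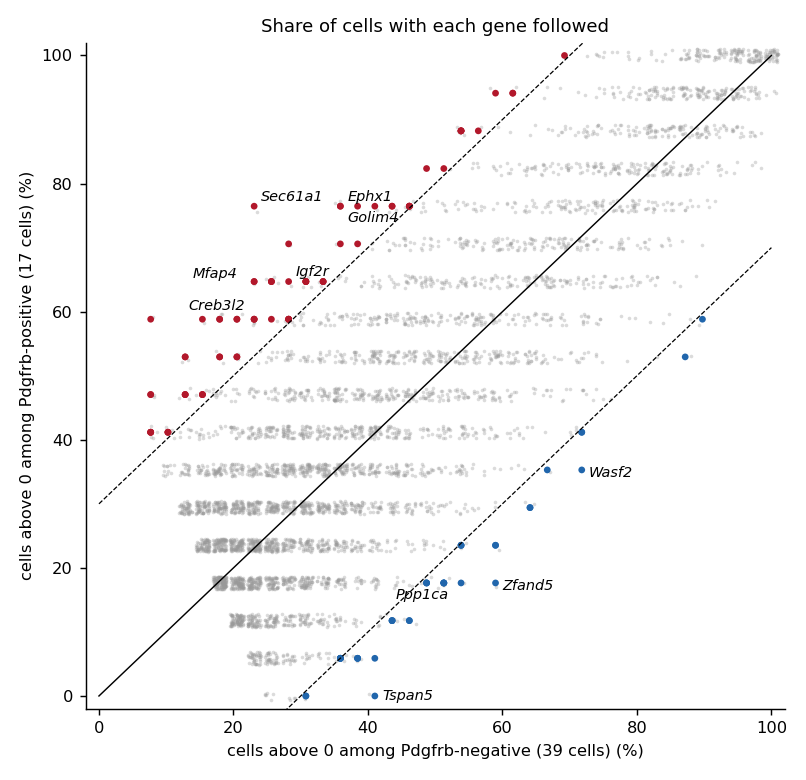
Each point is 1 of 5239 genes, placed by the percent of the 39 Pdgfrb-negative cells (horizontal axis) and of the 17 Pdgfrb-positive cells (vertical axis) in which it was found. The solid line marks equal shares and the dashed lines 30 percentage points, beyond which lie 73 red genes and 39 blue genes. Grey points are shifted slightly so that they do not hide each other.

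Among the other PDGF genes, the second receptor gene was found in similar shares of both groups. Pdgfra, which encodes PDGFRα, was found in 14 of 17 positive cells (82.4%, interval 56.6% to 96.2%) and in 33 of 39 negative cells (84.6%, interval 69.5% to 94.1%). Intervals are exact 95% Clopper-Pearson intervals and cover counting error only. Its value had a median of 1314 in positive cells (range, 0 to 7804) and 566 in negative cells (range, 0 to 4047). The mean of log2(value + 1) was 8.74 ± 4.43 (SD over 17 cells) and 7.78 ± 3.94 (SD over 39 cells), so the difference of 0.96 was smaller than the spread among cells and the groups overlapped almost fully. Most negative cells therefore held reads of PDGFRα while holding none of PDGFRβ.

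Pdgfrl, which encodes a PDGF receptor-like protein without a kinase domain, was found in 6 positive cells (35.3%, interval 14.2% to 61.7%) and in 4 negative cells (10.3%, interval 2.87% to 24.2%), a difference of 25 points. Pdgfd, whose product is a PDGFRβ ligand, was found in 6 positive and 11 negative cells, a difference of 7.09 points. At 10 or more reads Pdgfd was present in 6 positive and 6 negative cells. Its difference ranged from -11.5 to 19.9 points over the settings tried. The highest Pdgfd value was 3929 in the positive and 3185 in the negative cells. The remaining ligand genes were found in too few cells to be followed. Pdgfa was found in 2 positive cells and 1 negative cell, and Pdgfc in 2 and 4 cells. Pdgfb, which encodes the main PDGFRβ ligand, was found in 0 positive cells, which allows a share of up to 17.6%, and in 2 negative cells.

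Genes of the proteins that act below the PDGF receptors differed little. Of 38 such genes 21 were followed, and 0 were 30 points apart in either direction, compared with 2.14% of all genes. Their median difference was -0.30 points, compared with 1.06 for all genes. Fyn, a Src family kinase, had the largest difference of the list. It was found in 11 positive cells (64.7%) and 15 negative cells (38.5%), a difference of 26.2 points, with mean log2 values of 5.69 ± 4.92 and 3.17 ± 4.31. Its direction turned, to -21.8 points, when only the 6 positive cells with a Pdgfrb value of at least 1000 were taken. Nck1, an SH2 adaptor, was found in 5 and 6 cells, a difference of 14 points. Stat3, Stat5b, Pik3ca and Rasa1, which encode transcription factors, a PI3 kinase subunit and a Ras GTPase-activating protein, each lay between 11.2 and 11.5 points. On the other side, the kinase gene Map2k1 lay at -11.3 points and Shc1, an adaptor, at -10.6 points.

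The label of stromal cells was checked against marker genes. Of 13 fibroblast markers followed, none was more than 7.69 points apart in the share of cells, which was near its upper end for most of them, so that levels say more here. Lum, a proteoglycan of collagen fibrils, was found in 17 positive and 36 negative cells, and Col1a1, a chain of type I collagen, in 17 and 38 cells. Serping1, a complement inhibitor, had a median value of 56.5 in positive cells (range, 0 to 50819) and 1685 in negative cells (range, 0 to 99067), and mean log2 values of 6.94 ± 4.82 and 10.03 ± 4.58. Col1a2, the other chain of type I collagen, held at least 10 reads in 6 of 17 positive and 24 of 39 negative cells, with mean log2 values of 5.75 ± 6.02 and 7.53 ± 5.95. Serping1 and Col1a2 were thus lower in level in the positive cells, within a spread among cells larger than the difference. The 13 followed markers as a list were not lower, with a median difference in mean log2, positive minus negative, of 0.548. Their summed level had medians of 39060 CPM of recovered reads in positive cells and 38861 in negative cells. At a value of at least 100, every positive cell held at least 8 of these 13 markers, and 38 of the 39 negative cells held at least 3. Ly6a, which encodes the sorted antigen Sca1, was found in 15 positive and 35 negative cells. Itgb1, which encodes the sorted antigen CD29, was found in 11 and 22 cells. Both groups were thus fibroblast-like in the genes that define that type, and the sorted antigens were found in either group.

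Most markers of pericytes and other mural cells with a row were found in few or no Pdgfrb-positive cells. Apart from Pdgfrb, 13 of the 20 mural genes listed have a row, and the smooth muscle genes Acta2, Tagln, Myh11 and Cnn1 were not analysed here. Rgs5, Cox4i2 and Mcam were found in 0 cells of either group. Cspg4 (NG2), Notch3, Des, Tbx18, Ednra and Ndufa4l2 were found in 0 positive cells, which allows up to 17.6% for each, and in between 1 and 5 negative cells. Kcnj8, a subunit of a potassium channel of pericytes, was found in 1 positive and 0 negative cells. Abcc9, the partner of that channel, was found in 4 positive (23.5%) and 6 negative cells (15.4%). Anpep, which encodes CD13 and is also used to mark fibroblasts, was found in 10 positive cells (58.8%, interval 32.9% to 81.6%) and 14 negative cells (35.9%, interval 21.2% to 52.8%). At a value of at least 100, 10 of the 17 positive and 27 of the 39 negative cells held none of the 13 mural markers, and the highest number in 1 cell was 2 and 3. At any value above 0, 5 of the 17 positive and 19 of the 39 negative cells held none, and the highest number was 3 and 4. The summed mural markers reached a median of 18.6 CPM of recovered reads in positive cells (range, 0 to 1502) and 4.59 in negative cells (range, 0 to 907).

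At a value of at least 100, 3 or more endothelial or 3 or more mesothelial markers sat together in 3 negative cells and in no positive cell. At any value above 0, 4 of the 17 positive and 9 of the 39 negative cells held 3 or more endothelial markers. Of 15 endothelial markers 5 were followed. Pecam1 was found in 3 positive and 11 negative cells, Cldn5 in 2 and 10, Flt1 in 2 and 8, Tek in 4 and 7, and Eng in 6 and 7. Of the Pecam1 values in negative cells, 1 came from 100 or more reads, and of those in positive cells none did. Their summed level had medians of 5.13 CPM of recovered reads in positive cells (range, 0 to 595) and 4.91 in negative cells (range, 0 to 14184). A single negative cell held 6 endothelial markers at a value of at least 100, and without it 78 genes were higher and 31 lower in positive cells. Of 9 mesothelial markers only Wt1, a transcription factor also used by fibroblasts of visceral fat, was followed, and it was found in 8 positive and 11 negative cells. The other 8 mesothelial markers, Msln and Upk3b among them, were found in 0 positive cells and in between 1 and 3 negative cells. They came together in 2 negative cells that held at least 3 mesothelial markers at a value of at least 100. The highest number in 1 negative cell was 8 at that level and 9 at any value above 0, whereas no positive cell held more than 1. The summed mesothelial markers had a median of 0 CPM in both groups and reached 919 in positive and 6976 in negative cells. Without these 2 cells, 76 genes were higher and 36 lower in positive cells, and 68 of the 73 and 28 of the 39 genes stayed past 30 points. Without them and the cell with 6 endothelial markers, the counts were 87 and 39. Among Schwann cell markers with a row, S100b, a calcium-binding protein, was found in 5 positive cells and 1 negative cell, while Mbp and Cnp were found in 0 positive and 3 negative cells each. Cd68 was found in 2 positive cells, and Csf1r and Tyrobp in 1 negative cell each. Of the adipocyte markers with a row, all 5 were found in 0 positive cells and at most 1 negative cell. The part of other cell types in the differences was not tested beyond the cells left out.

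**Figure D3:**
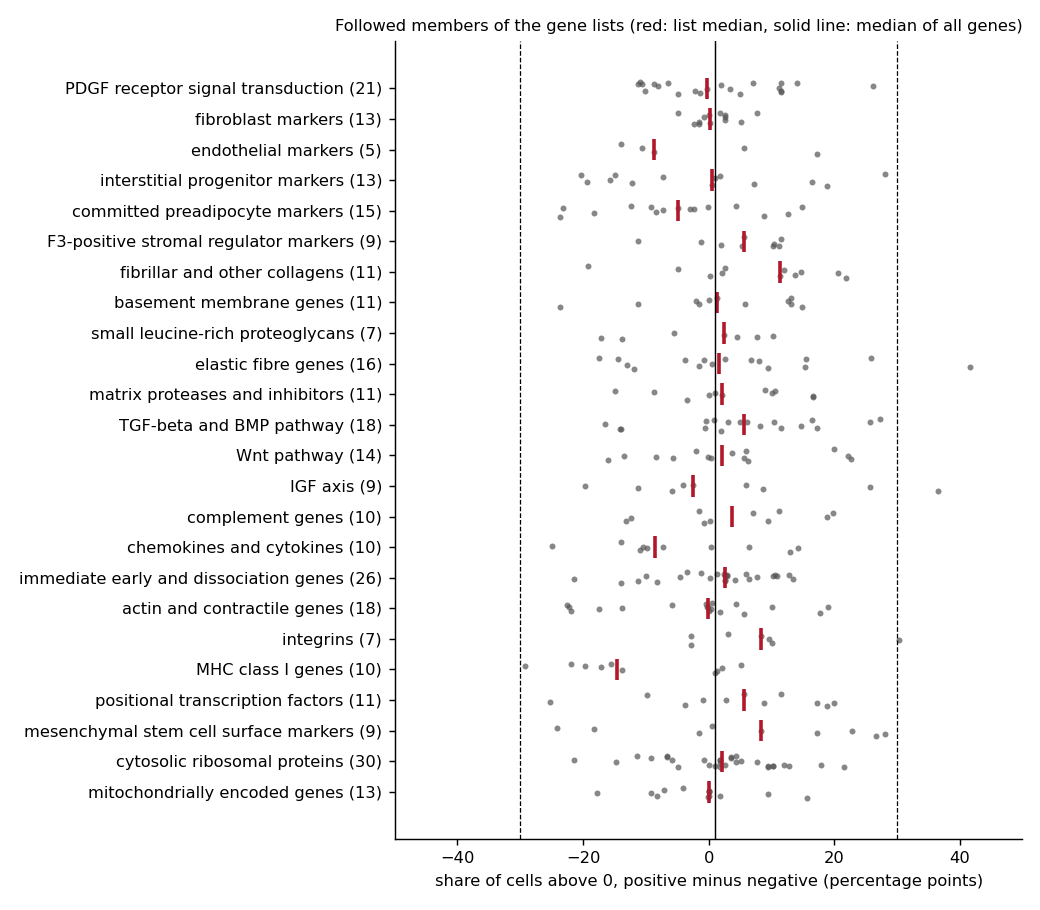
Difference in the share of cells in which a gene was found (positive minus negative, in percentage points) for every followed member of 24 gene lists, with the number of members in parentheses, 1 point per gene. The solid line is the median of all 5239 genes at 1.06 points, red ticks are list medians, and the dashed lines mark 30 points in each direction, passed by 3 members.

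Gene lists written for this tissue gave no larger share of differences than all genes. Of the 302 followed members of 32 lists, 3 were at least 30 points higher in positive cells and 0 were at least 30 points lower, which is 0.993% of them, compared with 2.14% of all genes. The 3 genes were Mfap4, Igf2r and Itgav, and each is described with its list.

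Mfap4 encodes a glycoprotein of the microfibrils that surround elastin. It was found in 11 positive cells (64.7%, interval 38.3% to 85.8%) and 9 negative cells (23.1%, interval 11.1% to 39.3%), a difference of 41.6 points. Its value had a median of 3028 in positive cells (range, 0 to 12019) and 0 in negative cells (range, 0 to 6473), so a minority of negative cells reached levels like those of positive cells. The mean log2 value was 7.57 ± 6.11 in positive and 2.62 ± 4.89 in negative cells. In 10 of the 11 positive cells and in all 9 negative cells with Mfap4 it was present at 100 or more reads. Over the settings tried, its difference ranged from 35.7 to 43.7 points.

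The other 15 elastic fibre genes followed did not reach 30 points, and the list had a median difference of 1.58 points. Fbln5, a fibulin that binds elastin, was found in 14 positive cells (82.4%) and 22 negative cells (56.4%), a difference of 25.9 points, with mean log2 values of 9.51 ± 4.73 and 5.55 ± 5.40. Emilin1, a microfibril protein, was found in 7 and 10 cells. Efemp2, also a fibulin, lay on the other side with 4 positive and 16 negative cells, and Efemp1 with 8 and 24. Eln, the gene of elastin itself, was found in 7 positive and 2 negative cells, 1 cell short of the minimum needed to be followed, and in 3 positive cells it had 100 or more reads.

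Of the 11 collagen genes followed apart from Col3a1, 9 were found in a larger share of positive cells, compared with 53.7% of all genes. None was 30 points apart, compared with 2.14% of all genes. The list had a median difference of 11.3 points, compared with 1.06 for all genes. Its summed level, without Col3a1, had medians of 4057 CPM of recovered reads in positive cells (range, 2236 to 26981) and 4660 in negative cells (range, 0 to 29853). A median of 8 of these 13 summed genes was found per cell in both groups. Col6a3, a chain of the beaded-filament collagen VI, was found in 12 positive (70.6%) and 19 negative cells (48.7%). Col8a1, a chain of the short-chain collagen VIII of vessels, was found in 7 and 8 cells. Col5a1 was found in 15 and 30 cells, with a median value of 1039 in positive and 183 in negative cells. Col14a1, a collagen at the surface of fibrils, was the main exception. It was found in 12 positive (70.6%) and 35 negative cells (89.7%), a difference of -19.2 points, with mean log2 values of 7.19 ± 4.96 and 9.77 ± 3.6.

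The remaining matrix lists lay near all genes. The 11 basement membrane genes had a median difference of 1.36 points, yet the chains of collagen IV parted. Col4a1 was found in 13 positive and 24 negative cells (14.9 points), and Col4a2 in 6 positive and 23 negative cells (-23.7 points). The 7 small leucine-rich proteoglycans had a median of 2.41 points, with Bgn at 10.3 points and Omd, found in 1 positive and 9 negative cells, at -17.2 points. The 11 matrix proteases and their inhibitors had a median of 2.11 points.

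Receptors of TGF-β and BMP were among the genes found more often in positive cells, although none reached 30 points. That size was reached in either direction by 2.14% of all genes. Of 18 genes of this pathway followed, 13 were found in a larger share of positive cells, compared with 53.7% of all genes, and their median was 5.58 points. Bmpr1a, a type I receptor for BMPs, was found in 9 positive (52.9%, interval 27.8% to 77%) and 10 negative cells (25.6%, interval 13% to 42.1%), a difference of 27.3 points. Tgfbr1, the type I receptor for TGF-β, was found in 7 (41.2%) and 6 cells (15.4%), a difference of 25.8 points, and its highest values were 17729 in positive and 21074 in negative cells. Over the settings tried, the difference ranged from 1.28 to 26.5 points for Tgfbr1 and from 20.7 to 28.6 points for Bmpr1a. Tgfbr2, the type II receptor, was found in 15 (88.2%) and 28 cells (71.8%). The summed pathway genes had medians of 4286 CPM of recovered reads in positive and 4356 in negative cells. Smad7, which blocks this pathway, lay on the other side with 2 positive and 11 negative cells (-16.4 points). Bmp1, a protease that processes procollagen, was found in 5 and 17 cells, and Id4, a target of BMPs, in 2 and 10. Bmp7, a BMP ligand, was found in 0 positive and 9 negative cells, too few to be followed.

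Igf2r encodes the receptor that takes up IGF2 and lysosomal enzymes. It was found in 11 positive cells (64.7%, interval 38.3% to 85.8%) and 11 negative cells (28.2%, interval 15% to 44.9%), a difference of 36.5 points. Its value had a median of 297 in positive cells (range, 0 to 1046) and 0 in negative cells (range, 0 to 1837), so that the highest negative cell stood above all positive cells. Igf1, the growth factor itself, was found in all 17 positive cells and in 29 negative cells (74.4%), with medians of 1303 and 724. Igfbp5, a binding protein for it, was found in 8 positive (47.1%) and 26 negative cells (66.7%), a difference of -19.6 points. The 9 genes of the IGF axis followed had a median of -2.41 points, so this list did not lie to one side.

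Itgav encodes integrin αV, a subunit of receptors for vitronectin and latent TGF-β. It was found in 13 positive (76.5%) and 18 negative cells (46.2%), a difference of 30.3 points, just past the size used. Its range over settings was 21.4 to 37.2 points, and the highest value, 9544, was in a negative cell. The 7 integrin genes followed had a median of 8.30 points.

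Among 14 Wnt pathway genes with a median of 2.11 points, Ctnnb1, which encodes β-catenin, was found in 13 positive and 21 negative cells (22.6 points). At 10 or more reads Ctnnb1 was present in 9 positive and 20 negative cells. Over the settings tried, the Ctnnb1 difference ranged from 1.66 to 23.8 points. Tcf7l2, its partner on DNA, was found in 9 and 12 cells (22.2 points). Lrp6, a Wnt co-receptor, lay at -16 points with 6 and 20 cells. Of 15 Notch genes with a row 3 were followed, and Notch2 lay at -10.6 points, Rbpj at 0.60 and Hes1 at 2.71.

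Markers used to divide adipose stromal cells lay in both directions. Of these markers 0 were 30 points apart, compared with 2.14% of all genes, a share at which lists of this size may hold none. Of 13 interstitial progenitor markers followed, 7 were found more often in positive cells and 6 less often, with a median of 0.60 points. Cd44, a hyaluronan receptor, was found in 10 positive (58.8%) and 12 negative cells (30.8%), a difference of 28.1 points. Over the settings tried, the Cd44 difference ranged from 2.56 to 32.4 points. Cd55 lay at 18.9 points and Pi16, found in 15 and 28 cells, at 16.4 points. In contrast, Sema3c was found in 7 positive (41.2%) and 24 negative cells (61.5%). Dpp4, a surface peptidase that names these progenitors, was found in 5 (29.4%) and 19 cells (48.7%). At 10 or more reads, however, Dpp4 was present in 5 positive and 12 negative cells. Its difference ranged from -32.1 to -1.36 points over the settings tried. Of 15 committed preadipocyte markers, 11 were found less often in positive cells, compared with 45.4% of all genes, with a median of -4.83 points. By level the list did not lie to one side. Its median difference in mean log2 was 0.06, compared with 0.09 for all genes. A median of 9 of its 22 genes with a row was found per cell in both groups. Ebf1, a transcription factor of the adipocyte lineage, was found in 10 positive (58.8%) and 32 negative cells (82.1%), a difference of -23.2 points. Cd36, a fatty acid carrier, was found in 3 and 14 cells, but with 100 or more reads in 0 and 2. Pparg, the main adipogenic factor, was found in 1 cell of each group. The 9 markers of F3-positive stromal cells followed had a median of 5.58 points, and F3 itself was found in 8 positive and 14 negative cells.

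Of 9 surface markers of mesenchymal stem cells, 0 were 30 points apart, compared with 2.14% of all genes. Among the 9, 6 were found more often in positive cells, compared with 53.7% of all genes. Cd9, a tetraspanin, was found in 15 positive (88.2%) and 24 negative cells (61.5%), a difference of 26.7 points, with mean log2 values of 9.44 ± 3.92 and 6.19 ± 5.45. Cd200, a ligand that dampens myeloid cells, was found in 2 positive (11.8%) and 14 negative cells (35.9%), a difference of -24.1 points. Thy1 was found in 3 and 14 cells (-18.3 points), and Cd34 in 11 and 25 cells (0.60 points). Among 11 positional transcription factors, Osr1, a factor of mesoderm and of fibro-adipogenic progenitors, was found in 4 positive (23.5%) and 19 negative cells (48.7%), a difference of -25.2 points. Twist1 was found in 6 cells of each group, which was 35.3% of positive and 15.4% of negative cells.

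In the lists of chemokines and cytokines and of MHC class I genes, 6 of 10 genes each were found less often in positive cells. This share was not far from the 45.4% of all genes. The 10 chemokine and cytokine genes followed had a median of -8.52 points, compared with 1.06 for all genes. The 10 MHC class I genes had a median of -14.6 points. In these lists 0 genes were 30 points apart, compared with 2.14% of all genes. Ccl2, a chemokine for monocytes, was found in 1 positive (5.88%, interval 0.149% to 28.7%) and 12 negative cells (30.8%, interval 17% to 47.6%). The Ccl2 value was 1469 in that positive cell, and in the negative cells with Ccl2 the median was 3526. Cxcl16 was found in 2 and 10 cells, whereas Csf1, a growth factor for macrophages, was found in 12 (70.6%) and 22 cells (56.4%). H2-Q4, a nonclassical class I gene, was found in 2 and 16 cells, but the median in negative cells with it was 4.87, and in 0 negative cells did it have 100 reads. At a value of at least 100 its difference turned to 5.88 points. Members of this family are near-identical and can share reads, so H2-Q4 and H2-Q7 are uncertain. Tapbp, which loads peptides on class I molecules, was found in 5 and 20 cells. B2m, the common light chain, was found in 17 and 37. The 10 complement genes had a median of 3.70 points, with 6 found more often in positive cells and 4 less often.

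Lists of cell state lay close to all genes. The 26 immediate early and dissociation genes had a median of 2.56 points, the 18 actin and contractile genes -0.08, the 30 cytosolic ribosomal protein genes 2.19 and the 13 mitochondrially encoded genes 0. Within the contractile list, Cald1, which encodes caldesmon, lay at 19 points, and Myl12b, a myosin light chain, at -22.5 points. Mki67 was found in 0 cells of either group, which allows up to 17.6% of positive and 7.69% of negative cells, and 1 of 8 cell cycle genes with a row, Ccnd2, was followed.

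**Figure D4:**
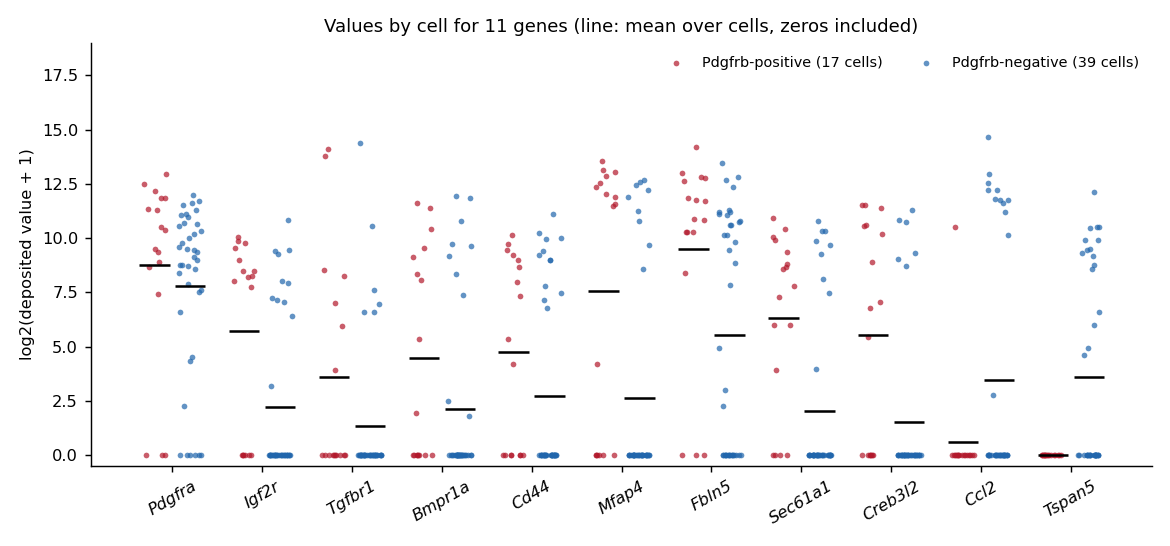
Values by cell of 11 genes as log2(deposited value + 1) in Pdgfrb-positive (red) and Pdgfrb-negative (blue) cells, with a line at the mean that counts cells at 0. Cells of both groups lie at 0 and at high values for most genes, Mfap4 has means of 7.57 and 2.62, and Tspan5 is at 0 in all 17 positive cells.

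The gene with the largest difference was Sec61a1, which encodes the pore of the channel that takes new secreted and membrane proteins into the endoplasmic reticulum. It was found in 13 positive cells (76.5%, interval 50.1% to 93.2%) and 9 negative cells (23.1%, interval 11.1% to 39.3%), a difference of 53.4 points. Its value had a median of 220 in positive cells (range, 0 to 1938) and 0 in negative cells (range, 0 to 1778). Its partner subunits Sec61b and Sec61g lay at 10.6 and 7.24 points. These leading genes are the extremes of 5239, and their intervals take no account of that choice.

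The other 11 genes that lead in positive cells are given with what each is known to do. Creb3l2, a membrane-anchored transcription factor of the endoplasmic reticulum, was found in 10 positive (58.8%) and 6 negative cells (15.4%), a difference of 43.4 points. St3gal2, a sialyltransferase of the Golgi apparatus, was found in 11 and 9 cells (41.6 points), but at 100 or more reads in 5 and 6 cells. Golim4, a Golgi membrane protein, was found in 13 and 14 cells (40.6 points). Ephx1, an epoxide hydrolase of the endoplasmic reticulum, was found in 13 and 14 cells (40.6 points), with mean log2 values of 7.94 ± 4.67 and 3.39 ± 4.78. Because of these genes, 3 further lists of the secretory route were written after the values were seen. They hold the genes that prompted them, so their counts past 30 points, to be set beside 1.39% of all genes, support nothing, and their medians lay within 6 points of that of all genes. The 19 genes of import into the endoplasmic reticulum had a median of -4.52 points with 1 gene past 30 points. The 18 genes of transport to the Golgi apparatus had a median of 5.43 points with 3 genes past it, namely Golim4, Sec22b and Sar1a. The 28 genes of the unfolded protein response and chaperones had a median of 1.89 points with 2 genes past it, Creb3l2 and Derl1.

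Among the remaining leading genes in positive cells, Nsmce4a, a subunit of a DNA repair complex, was found in 12 and 11 cells (42.4 points), but at 100 or more reads in 5 positive and 10 negative cells, so its difference rests on low values. Pink1, a kinase that marks damaged mitochondria, was found in 10 and 7 cells (40.9 points). Tob1, an antiproliferative protein, was found in 9 and 5 cells (40.1 points). Numbl, an adaptor related to the Notch inhibitor Numb, was found in 9 and 5 cells as well, but at 100 or more reads in 2 and 4 cells, and at a value of at least 100 its difference was 1.51 points. Gm13921 was found in 10 and 3 cells and Rps12-ps1 in 10 and 7, each with a median of 1 where found and 0 cells at 100 reads. Such pseudogenes share reads with near-identical copies and are uncertain.

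Tspan5, a tetraspanin that guides the protease ADAM10, was found in 0 of the 17 positive cells, for which the exact interval reaches 19.5%. It was found in 16 negative cells (41%, interval 25.6% to 57.9%). In the negative cells with Tspan5 the median was 666, and 12 of them held 100 or more reads. Zfand5, a zinc finger protein linked to the proteasome, was found in 3 positive (17.6%, interval 3.80% to 43.4%) and 23 negative cells (59%, interval 42.1% to 74.4%), a difference of -41.3 points. These were the genes with the largest differences toward negative cells.

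The next genes toward negative cells were Wasf2, Ppp1ca and Arpc3. Wasf2, which activates actin branching, was found in 6 positive (35.3%) and 28 negative cells (71.8%), a difference of -36.5 points, with mean log2 values of 2.71 ± 4.28 and 6.19 ± 4.30. Arpc3, a subunit of the complex that it activates, was found in 4 and 23 cells (-35.4 points). Ppp1ca, a catalytic subunit of protein phosphatase 1, was found in 3 positive and 21 negative cells (-36.2 points), always with 100 or more reads. Upf2, a factor of nonsense-mediated decay, was found in 1 and 16 cells (-35.1 points). Vti1b, a SNARE of endosomes, was found in 5 and 25 cells (-34.7 points). Ramp2, which makes a receptor for adrenomedullin together with its partner, had the same counts. Mrpl13, of the mitochondrial ribosome, and Mfap1a, a spliceosome protein despite its microfibril name, were each found in 2 and 18 cells (-34.4 points). Gm6419 and Gm15776 are predicted genes found in 4 and 23 and in 9 and 34 cells, and Gm15776 turned to 3.02 points when a value of at least 10 was asked for. Apart from Ramp2 and Gm15776, the sign of the 24 leading genes held in every setting that gave another value than 0.

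Genes found in nearly every cell were compared by their mean level instead. Of 201 genes found in at least 90% of the cells of both groups, 8 were at least 1 log2 unit higher in positive cells, which is 3.98%, and 3 were at least 1 unit lower, which is 1.49%. Klf6, a zinc finger factor of the immediate early response, had a mean log2 of 10.48 ± 2.42 in positive and 8.08 ± 3.95 in negative cells. Egr1, also an immediate early gene, lay the other way with 7.34 ± 5.64 and 9.59 ± 4.23. Their values overlapped, with Klf6 from 16 to 25027 in positive and from 0 to 6452 in negative cells, and Egr1 from 0.805 to 12012 and from 0 to 28341. These immediate early genes thus lay on opposite sides.

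Structural genes were among the higher ones. Vim, which encodes the intermediate filament vimentin, had a median value of 5830 in positive cells (range, 671 to 32904) and 4099 in negative cells (range, 0 to 16588), and its mean log2 was 1.46 higher. Lum was 1.5 higher, mt-Cytb of the respiratory chain 1.73, the dynein light chain Dynll1 1.38 and the chaperone Hspa5 of the endoplasmic reticulum 1.14. In the negative direction, AY036118 differed by -1.80, the chaperone Hspa8 by -1.34, the ribosomal proteins Rps2 and Rps16 by -1.0 and -0.72, and the large scaffold protein Ahnak by -0.96. All of these differences were smaller than the SD over the cells of at least one of the groups.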

How the data were processed

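Single PV-ADSCs were sequenced as 1 library per cell. After a FastQC check, the authors used HISAT2 2.0.5 on the mm9 build, SAMtools 1.4 and StringTie 1.3.3 (versions per the submitters' processing notes), and scater with its default scaling, keeping 85 of 94 cells. The program that counted reads is not given in the sources used here. The deposited values are a signal of scaled read counts for 16069 genes. They were used as log2(value + 1) and as shares of cells above 0. Reads were recovered by dividing out the factor of each of 13 groups of genes in each cell. Of 165973 values, 9 were rounded and 5 had no factor found. For Pdgfrb the factor ranged from 0.496 to 4.17 over the compared cells. The scripts were tested on simulated data.

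The genes named were Pdgfrb, Dcn and Col3a1, all PDGF genes, up to 3 genes from either end of each list, the 12 at either end of all followed genes by share, and 6 at either end among genes found in at least 90% of both groups. Other list members were named after their values were seen. The groups, the 32 lists and the rules were chosen with earlier results of these data known. The reference annotation is of another build, so no coordinates are given. For 0 cells found, the share allowed is that of 3 cells in the group. No doublet caller was run on these plate libraries of single sorted cells. Alternatives were other levels for a gene to count as found, other limits for the cells, thinning, and leaving out each cell. Python 3.11.15, numpy 2.4.6, pandas 2.3.3, scipy 1.17.1 and matplotlib 3.10.9 were used.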

Additional observations from a re-analysis of the deposited data

How the results depend on the processing

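The count of genes at least 30 points higher in Pdgfrb-positive cells, 73, became 216 when positive cells had to reach a Pdgfrb value of 1000, which left 6 of them, and 233 when a difference in mean log2 of 2 took the place of 30 points. The count of lower genes, 39, became 309 and 143 under these settings, 22 when at least 10 recovered reads were asked for, and 78 with negative cells in the shared range of genes per cell. With 6 cells, 1 cell moves a share by more than with 17. Leaving out each cell in turn gave from 64 to 94 higher and from 28 to 50 lower genes, and the cell with the fewest reads, whose scaled Dcn came from 69 reads, gave 66 and 44 when left out. At 10 recovered reads, 42 of the 73 and 17 of the 39 genes stayed past 30 points. Ramp2 turned to 2.56 points with a Pdgfrb value of at least 1000, and Gm15776 to 3.02 points at a value of at least 10 and to 6.33 points at 10 recovered reads. The cause of these changes was not tested. The other counts of higher and lower genes stayed within 1.5 times, and of the values of single named genes 2135 moved by less than their limit and 137 by more. Below 30 points, many named genes changed sign in at least 1 setting, and those given here are examples. With a Pdgfrb value of at least 1000, Fyn (26.2 points) turned to -21.8 and Anpep (22.9 points) to -2.56. Under the same setting, Rasa1 (11.5 points) turned to -1.28, Pdgfd (7.09 points) to -11.5 and Hes1 (2.71 points) to -21.8. At a value of at least 100, Eng (17.3 points) turned to -5.13. No paired analysis was possible because all cells are 1 sample. The shares are limited by 17 and 39 cells of unknown animals, and by transcripts that a library misses.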

Other observations

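Further genes past 30 points, chosen here after their values were seen, include matrix and transcription factor genes not in the lists. Tgfbi, a matrix protein induced by TGF-β, was found in 10 positive and 8 negative cells (38.3 points), with mean log2 values of 6.29 ± 5.58 and 2.37 ± 4.80. Cilp, a matrix protein of cartilage and fibroblasts, was found in 11 and 10 cells (39.1 points), and Prrx2, a homeobox factor of mesenchyme, in 11 and 10 cells (39.1 points). Lmna, which encodes the nuclear lamins A and C, was found in 11 and 13 cells (31.4 points). Npc2, a cholesterol carrier of lysosomes, was found in 15 and 22 cells (31.8 points).

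Other genes, also chosen after their values were seen, were found in more negative cells. Tomm5, of the import channel of the outer mitochondrial membrane, was found in 3 positive and 20 negative cells (-33.6 points). Clpp, a protease of the mitochondrial matrix, and Mrps18c, of the mitochondrial ribosome, were each found in 1 and 14 cells. Rcan1, an inhibitor of calcineurin, was found in 3 and 20 cells (-33.6 points), and Slc1a5, a glutamine carrier, in 7 and 28 cells (-30.6 points). These genes are extremes picked from 5239, and no group of genes is named from them.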
